A study of Mus musculus with 4 samples.

Results

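The 10 immediate early genes described here are Egr1, Fos, Fosb, Jun, Junb, Jund, Ier2, Atf3, Dusp1 and Zfp36. Their probe sets were found by gene symbol among 45037 probe sets that are not controls, which name 18193 genes. All 10 genes were present, in 12 probe sets: Jun and Jund had 2 each, and the other 8 genes had 1. No probe set named together with a second gene was used.

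Immediate early genes are switched on within minutes of a stimulus such as a growth factor, a cytokine or mechanical stress, from factors already in the cell, without new protein synthesis. MAP kinases act on promoter-bound factors such as serum response factor with its Elk partners and CREB, and the resulting mRNAs are mostly short-lived. Many of the products are transcription factors: Fos and Jun proteins pair through leucine zippers to form AP-1, and Egr1 is a zinc finger factor. Others, such as Dusp1 and Zfp36, act as brakes on the same response. In the gut epithelium the family is known for its part in growth, wound repair and the response to luminal contents.

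The arrays measured mRNA of epithelium dissected by laser capture from frozen proximal colon and ileum of C57/Bl6 mice. The 4 groups crossed these regions with the microbial state, wild type or germ-free. Wild type animals served as the control, and germ-free animals carry no microbes; the sources used here give neither age nor sex and name no transgene or drug. Each group had 1 array, hybridised with RNA pooled from 4 mice (about 4000 captured cells from each), so no p-value was computed and no difference below has a replicate check. The labels mention hematoxylin staining for the germ-free tissue only. The comparisons asked how the epithelium differs without microbes in each region, and between regions in each state. Each array enters 2 comparisons: a high value on the wild type colon array, for example, lowers both the germ-free change in colon and the ileum value in wild type. The 2 germ-free comparisons share no array with each other, nor do the 2 regional ones.

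Values are probe set intensities, which the authors deposited on a linear scale, after quantile normalization of the log2 values. The floor was the pooled median intensity of 62.4, and the pooled 75th percentile, above which a gene is called bright here, was 259. As a partial measure of technical error, the spread between the 2 brightest probe sets of the same gene was taken over 1808 bright genes. Its SD was 0.26 log2 for the germ-free difference in colon and 0.20 for that in ileum, and 0.24 for the regional difference in wild type and 0.28 for that in germ-free tissue. It does not include the spread between mice, nor error that both probe sets share, such as that of capture, amplification, hybridisation or array scaling. Passing this spread is therefore not a test. Intensities of different probe sets are not comparable with each other, so each gene is followed across the arrays only.

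The epithelial label was borne out: all 9 epithelial markers, Epcam and Cdh1 among them, were above the floor on every array, with summed intensities between 77403 and 89327. Markers of other cells were also present. The sum over 7 plasma and B cell markers was 6476 in wild type and 934 in germ-free colon, and 12458 in wild type and 2725 in germ-free ileum, and Cd79a was below the floor on each. Over 9 lymphocyte markers it ranged from 857 (colon germ-free) to 1973 (ileum wild type), with Cd3e and Cd3d below the floor throughout, and over 12 myeloid markers from 2299 to 4092. The sum over 10 endothelial markers was 1077, 522, 698 and 655 in the same order, with Pecam1 below the floor on all arrays. Over 13 fibroblast, smooth muscle and pericyte markers it was 4561, 4230, 9465 and 4782, and over 6 neuronal and glial markers it ranged from 201 to 360. The 18S ribosomal RNA controls, in deposited values, had a median log2 change of -1.23 on the germ-free array in colon and -0.93 in ileum, and one of 0.43 and 0.84 in ileum against colon in wild type and germ-free. The 5' minus 3' signal of Actb differed by -0.12 (germ-free against wild type, colon), -1.20 (ileum), 1.46 (ileum against colon, wild type) and 0.38 (germ-free). That of Gapdh differed by -0.48, -1.10, 0.64 and 0.01 in the same order. The part of other cells or of RNA quality in the results below was not tested, and fewer cells of a type cannot be told apart from less RNA per cell.

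The promoters of 4 genes are printed because these show the contrast the results turn on. Jun, Atf3 and Dusp1 were at least 1.5-fold higher in colon than in ileum in both states, and Fos in wild type alone. Egr1 was so in wild type alone too, but no promoter of it was available. Each printed promoter is the 200 bases just before the RefSeq transcription start in build GRCm38.p6, 5' to 3' along the gene. Capitals mark matches, on either strand, to TGACG (the core of the cAMP response element, the site of CREB and ATF proteins) or to the octamer TGACNTCA, which overlaps it where N is G. Jun lies at chr4:95052223-95052422 (minus strand), Atf3 at chr1:191183334-191183533 (minus), Dusp1 at chr17:26508473-26508672 (minus) and Fos at chr12:85473690-85473889 (plus).
Jun: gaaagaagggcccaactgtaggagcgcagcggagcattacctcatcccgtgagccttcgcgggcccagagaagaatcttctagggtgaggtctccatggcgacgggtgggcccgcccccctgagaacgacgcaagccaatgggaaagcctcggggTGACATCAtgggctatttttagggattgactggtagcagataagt
Atf3: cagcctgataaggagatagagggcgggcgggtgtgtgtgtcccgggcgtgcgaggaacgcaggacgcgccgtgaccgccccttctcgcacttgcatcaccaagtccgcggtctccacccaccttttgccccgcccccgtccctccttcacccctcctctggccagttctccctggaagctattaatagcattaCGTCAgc
Dusp1: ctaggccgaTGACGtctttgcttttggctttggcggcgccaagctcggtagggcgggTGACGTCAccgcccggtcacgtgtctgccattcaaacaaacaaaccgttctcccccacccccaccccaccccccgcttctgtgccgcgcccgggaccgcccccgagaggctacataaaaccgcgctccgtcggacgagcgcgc
Fos: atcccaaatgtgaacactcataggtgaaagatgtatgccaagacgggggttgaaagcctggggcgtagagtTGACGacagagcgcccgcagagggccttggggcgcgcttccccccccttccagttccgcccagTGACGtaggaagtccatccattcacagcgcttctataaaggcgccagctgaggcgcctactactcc

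The RefSeq table held promoters of 8 of the 10 genes (all but Egr1 and Ier2), from 250 bases before to 50 after the start. TGACG was in 5 of these 8 (62.5%) and in 20.8% of all 32851 promoters of the table. Dusp1 had 3 matches, the farthest beginning 191 bases before the start and the other 2 being the 2 strands of the palindrome TGACGTCA. Fos had 2, at 129 and 66 bases, and Atf3 1, at 7 bases. Fosb and Junb had 1 each. The octamer TGACNTCA was in 2 of 8 against 8.83% of all promoters. In Jun it began 45 bases before the start, and in Dusp1 143 bases before it, as the full palindrome TGACGTCA.

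Other motifs were fewer. The CArG box, the element of serum response factor, was in 1 of 8 promoters, that of Zfp36, against 1.63% of all. The Egr1 element GCGNGGGCG was in 2 of 8, Fosb and Zfp36, against 5.55%. The hexamer TATAAA was in 2 of 8, Fos and Junb, against 13.6%, and the AP-1 heptamer TGANTCA was in 0 of 8 against 7.81%. All motifs were searched on both strands, and these are letter matches in short windows that carry no measurement of binding. Elements farther than 250 bases before the start were not searched, and Egr1 and Ier2 were not covered. A motif without a match here can thus still be present at the gene.

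**Figure D1:**
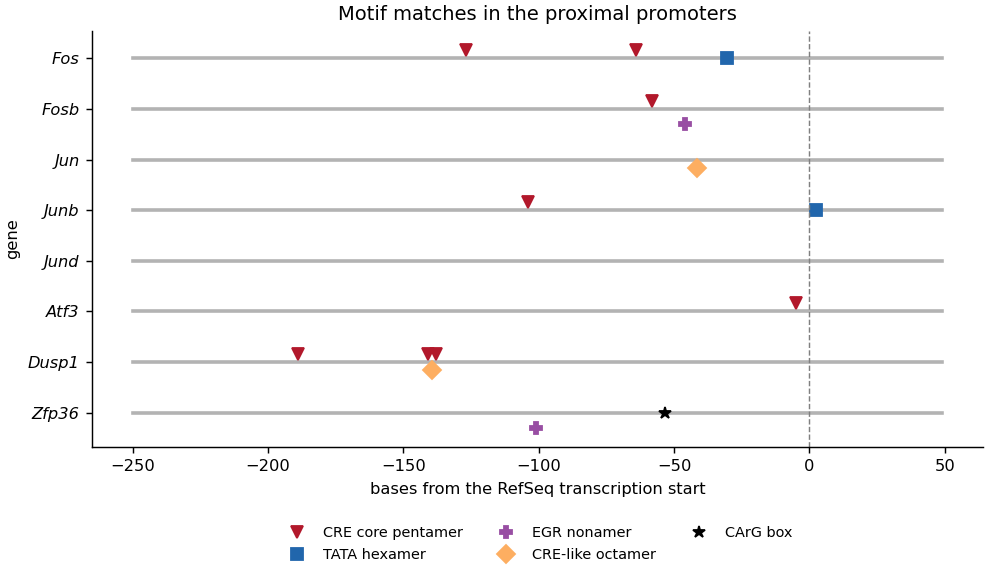
Positions of the motif matches in the 8 promoters, in bases from the RefSeq transcription start (dashed line, at 0); each grey line is 1 promoter and each symbol 1 match on either strand. Matches to the core pentamer TGACG stand in the promoters of Fos, Fosb, Junb, Atf3 and Dusp1, and Jun has the related octamer.

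Across the 4 arrays, 9 of the 10 genes were bright on all of them, and Fosb was above the floor on 1. Colon wild type was the highest array for 8 genes, and colon germ-free for the other 2, Fosb and Jund. The lowest was an ileum array for 9 genes and colon germ-free for 1, Zfp36. The highest and lowest arrays were not counted over all genes, so these counts only describe the members.

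**Figure D2:**
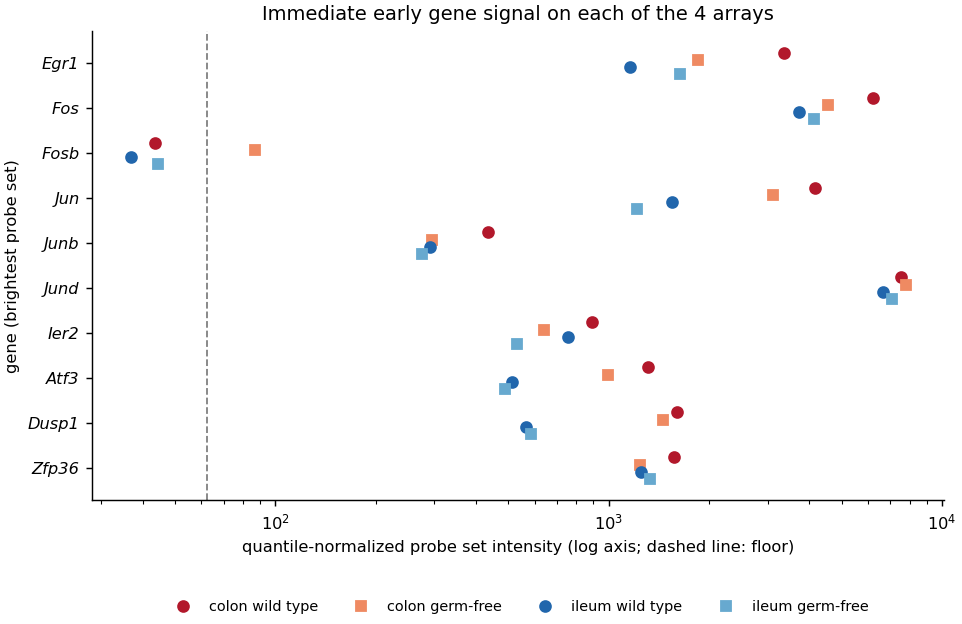
Quantile-normalized intensity (log axis) of the brightest probe set of each gene, 1 symbol per array; the dashed line is the floor of 62.4. Circles are wild type and squares germ-free, and the red colon wild type circle is the rightmost for 8 of the 10 genes; intensities are not comparable between genes.

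Egr1 had the widest germ-free difference in colon among the 9 bright members, and one of opposite direction in ileum. Its probe set read 3367 and 1857 on the wild type and germ-free colon arrays, and 1158 and 1636 on those of ileum. The wild type arrays thus formed the extremes, and the germ-free arrays lay between them. On the germ-free colon array Egr1 was 1.81-fold lower (log2 change -0.86), and 4.93% of measured genes had a change as low. On the germ-free ileum array it was 1.41-fold higher (0.50), a size that 3.89% of measured genes reached or passed. Both were past that spread, but Egr1 has a single probe set, so no second one could be set beside it. The colon change minus the ileum change was -1.36, and 2.11% of 11065 genes measured in both regions had a difference as low.

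Between regions, Egr1 was 2.91-fold lower in ileum than in colon in wild type (log2 -1.54) and 1.13-fold lower in germ-free (-0.18). The latter did not pass the spread between probe sets, and was 0.04 when the arrays were scaled to the same median. The regional gap of wild type tissue was therefore not seen between the germ-free arrays.

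Fos, the partner of the Jun proteins in AP-1, read 6234 and 4547 on the wild type and germ-free colon arrays, and 3715 and 4132 on those of ileum. The order of the arrays was the same as for Egr1, with smaller steps. Fos was 1.37-fold lower on the germ-free colon array (log2 -0.46) and 1.11-fold higher on the germ-free ileum array (0.15, within the spread between probe sets). In ileum it was 1.68-fold lower than in colon in wild type (-0.75) and 1.10-fold lower in germ-free (-0.14). That last value was 0.14 with the arrays scaled to the same median, so its direction is not settled.

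Fosb, a close relative of Fos, was near or below the floor. It read 43.4 and 87.1 on the wild type and germ-free colon arrays, and 36.9 and 44.6 on those of ileum, so the germ-free colon was the single array above the floor. Against the floored wild type value it was at least 1.40-fold higher there. No value can be given for ileum, where both arrays were below the floor.

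Jun, which encodes the main partner of Fos, was the member with the same pattern in 2 bright probe sets. The brighter one read 4158 and 3114 on the wild type and germ-free colon arrays, and 1555 and 1217 on those of ileum. The second read 2204, 1649, 613 and 506 in the same order. Both probe sets placed the colon arrays above the ileum arrays and wild type above germ-free in each region. The germ-free log2 change was -0.42 by either probe set in colon, and -0.35 and -0.28 in ileum. Ileum was lower than colon by 2.67-fold (log2 -1.42) in wild type and 2.56-fold (-1.36) in germ-free by the brighter probe set, and by 3.60-fold and 3.26-fold by the other.

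Junb, an AP-1 subunit that can oppose Jun, read 434 and 296 on the wild type and germ-free colon arrays, and 291 and 275 on those of ileum. Colon wild type stood apart, and the other 3 arrays lay close together. It was 1.47-fold lower on the germ-free colon array (log2 -0.55) and 1.06-fold lower on the germ-free ileum array (-0.08, within the spread). In wild type it was 1.49-fold lower in ileum than in colon (-0.58), and in germ-free 1.07-fold lower (-0.10), which was -0.42 in the values as deposited.

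Jund, the AP-1 subunit known for steady rather than inducible expression, was the most even member. Its bright probe set read 7544 and 7785 on the wild type and germ-free colon arrays, and 6656 and 7080 on those of ileum, with no array standing apart. Its 4 differences were all smaller than that spread (log2 0.05, 0.09, -0.18 and -0.14 for the germ-free changes in colon and ileum and the regional differences in wild type and germ-free). With the arrays scaled to the same median the colon change was -0.28. A second probe set was below the floor on all arrays.

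Atf3, a stress-induced factor of the ATF family that pairs with Jun proteins, read 1318 and 993 on the wild type and germ-free colon arrays, and 512 and 490 on those of ileum. Both colon arrays lay well above both ileum arrays. The regional difference was 2.57-fold in wild type (log2 -1.36, ileum lower) and 2.03-fold in germ-free (-1.02). On the germ-free array it was 1.33-fold lower in colon (-0.41) and 1.04-fold lower in ileum (-0.06, within the spread).

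Ier2, a short nuclear protein gene induced by serum, differed with the germ-free state by similar amounts in both regions. It read 894 and 640 on the wild type and germ-free colon arrays, and 755 and 532 on those of ileum. Both wild type arrays were above both germ-free arrays, an order that no other member had. The germ-free change was 1.40-fold lower in colon (log2 -0.48) and 1.42-fold lower in ileum (-0.51), and the difference between the regions' changes was 0.02. In ileum, 4.56% of measured genes had a change as low. The regional differences were -0.24 in wild type, just past the spread between probe sets, and -0.27 in germ-free, within it.

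Dusp1, the phosphatase that inactivates MAP kinases, followed the region. It read 1609 and 1459 on the wild type and germ-free colon arrays, and 564 and 587 on those of ileum. The 2 arrays of each region differed by less than the spread between probe sets (germ-free minus wild type, log2 -0.14 in colon, 0.06 in ileum). Ileum was 2.85-fold lower than colon in wild type (-1.51) and 2.49-fold lower in germ-free (-1.31).

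Zfp36, which encodes tristetraprolin, a protein that speeds the decay of mRNAs with AU-rich elements, varied little. It read 1573 and 1239 on the wild type and germ-free colon arrays, and 1251 and 1328 on those of ileum. Colon wild type was the highest, and the other 3 arrays lay close together. It was 1.27-fold lower on the germ-free colon array (log2 -0.34) and 1.06-fold higher on the germ-free ileum array (0.09, within the spread). The regional difference was -0.33 in wild type and 0.10, within the spread, in germ-free.

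Over the members together, the germ-free colon array was lower for 8 of 10 measured genes, with a median log2 change of -0.41, where 51.3% of 11746 measured genes were lower, 48.6% were higher and the median of all was -0.01. Past the spread between probe sets, 7 were lower (Egr1, Fos, Jun, Junb, Ier2, Atf3 and Zfp36) against 27% of measured genes, and Fosb was higher, as a bound, against 23.2%. At 1.5-fold, 1 gene (Egr1) was lower and 0 were higher, against 10.8% and 6.19% of measured genes. At 2-fold it was 0 of 10 either way, against 3.23% lower and 1.29% higher. The shift was thus of moderate size and shared by most members, with few large values. With the arrays scaled to the same median, 3 members (Egr1, Fos and Jun) were at least 1.5-fold lower, against 15.8% of measured genes. In that scaling the median of all genes lay at -0.16.

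In the ileum the members had no common direction. Of 9 measured genes 4 were lower and 5 higher without microbes, with a median of 0.06, against 45.1% and 54.8% of 11750 genes and a median of 0.03. Past the spread between probe sets, Jun and Ier2 were lower (background 19.8%) and Egr1 was higher (23.5%). At 1.5-fold 0 were lower and 0 higher, against 3.17% and 2.4%, and likewise at 2-fold, against 0.698% and 0.23%. The colon change minus the ileum change had a median of -0.35 over the 9 genes and of -0.02 over all genes measured in both regions.

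**Figure D3:**
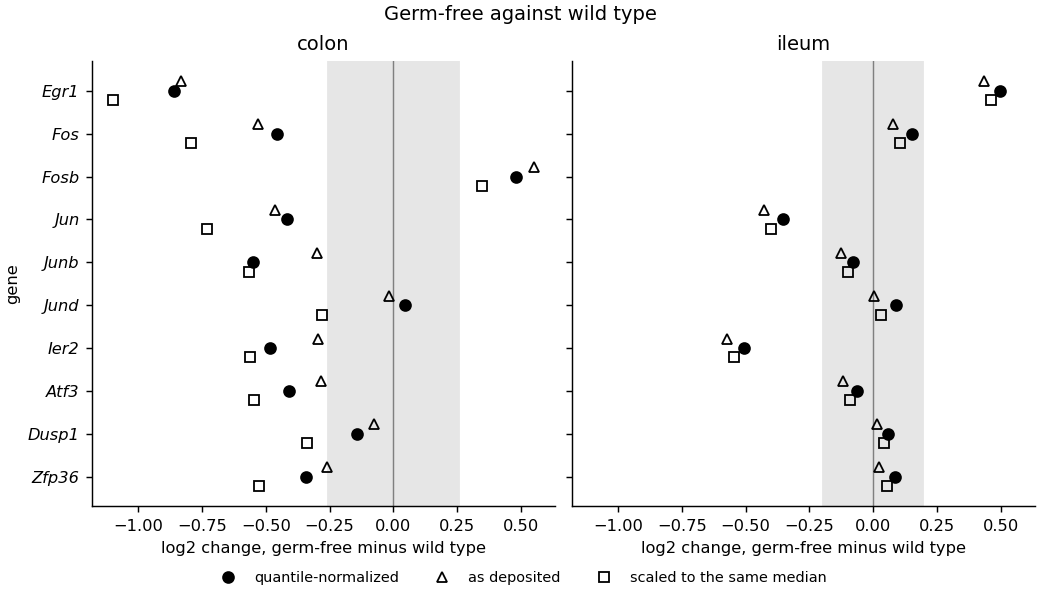
Log2 change, germ-free minus wild type, of each gene in colon (left) and ileum (right), quantile-normalized (filled circles), as deposited (triangles) and scaled to the same median (squares); the grey band is 1 SD between probe sets of the same gene, and Fosb was not measured in ileum. In colon 7 filled circles lie left of the band, with Egr1 farthest at -0.86, and in ileum Egr1 lies right of the band and Jun and Ier2 left of it.

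The members' median difference was largest between the wild type regions. There all 9 measured members were lower in ileum than in colon, with a median log2 difference of -0.75, where 50.8% of 12000 genes were lower, 49.2% were higher and the median was -0.01. At 1.5-fold 5 were lower (Egr1, Fos, Jun, Atf3 and Dusp1) against 13.9%, and at 2-fold 4 (without Fos) against 5.93%. At 1.5-fold 0 of the 9 were higher, against 13.6%, and at 2-fold 0, against 6.04%. Past the spread between probe sets 8 were lower, against 31.5%, and 0 higher, against 29.7%, with Jund the exception.

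In germ-free tissue 9 of 10 members were lower in ileum, against 46.7% of 11986 genes, and 1 (Zfp36) was higher, against 53.2%, but the median was nearer 0 at -0.22, with 0.04 over all genes. Of the 9 lower ones, Egr1, Fos and Jund were higher when the arrays were scaled to the same median (0.04, 0.14 and 0.11). At 1.5-fold 3 were lower (Jun, Atf3 and Dusp1) against 13.4%, and the same 3 passed 2-fold, against 5.88%, while 0 were 1.5-fold or 2-fold higher, against 17.2% and 7.37%. Past the spread between probe sets 4 were lower, Fosb among them as a bound, against 27.2%, and 0 higher, against 32.4%. Jun, Atf3 and Dusp1 were thus at least 1.5-fold lower in ileum in both states, which 8.44% of 11555 genes measured in both states were. Egr1 and Fos were at least 1.5-fold lower in ileum between the wild type arrays alone. Junb, Ier2 and Zfp36, below 1.5-fold, also passed the spread between probe sets in wild type alone. Junb lay close to the threshold, and its wild type value passed 1.5-fold in the 2 other scalings (log2 -0.59 as deposited and -0.61 with the same median). The change of the regional difference with the state was not tested.

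Of the other cell lists, endothelial markers had 6 of 6 measured genes lower in germ-free colon (median -0.79), where 51.3% of all measured genes were lower. The values of Flt1, Eng and Emcn there were bounds against the floor. Over 3 measured plasma and B cell markers the median in germ-free colon was -2.98 (Jchain -2.98, Igha -3.20 and Mzb1 -0.07). The other medians there were -0.36 for myeloid, -0.23 for T and intraepithelial lymphocyte, -0.22 for fibroblast and muscle and -0.21 for neuronal and glial markers. On the germ-free ileum array the medians were -0.87 for T and intraepithelial lymphocyte, -0.82 for fibroblast and muscle, -0.64 for plasma and B cell, -0.34 for myeloid and -0.16 for endothelial markers. The plasma and B cell median there was over 5 genes, so it is not comparable with that of colon. It was the value of Cd79b, a bound, while Jchain was at -2.77, Igha at -2.07, Mzb1 at -0.36 and Pou2af1, a bound, at -0.07. In wild type ileum against colon the endothelial median was -0.43, while that of fibroblast and muscle markers was 1.10 and that of plasma and B cell markers 0.64, opposite in sign to the members. T and intraepithelial lymphocyte markers were at 0.60 and myeloid markers at 0.25 there. In germ-free ileum against colon the medians were 1.77 for plasma and B cell, 0.47 for lymphocyte, 0.43 for myeloid, 0.22 for endothelial and -0.25 for fibroblast and muscle markers. Their part in the members' values was not tested.

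**Figure D4:**
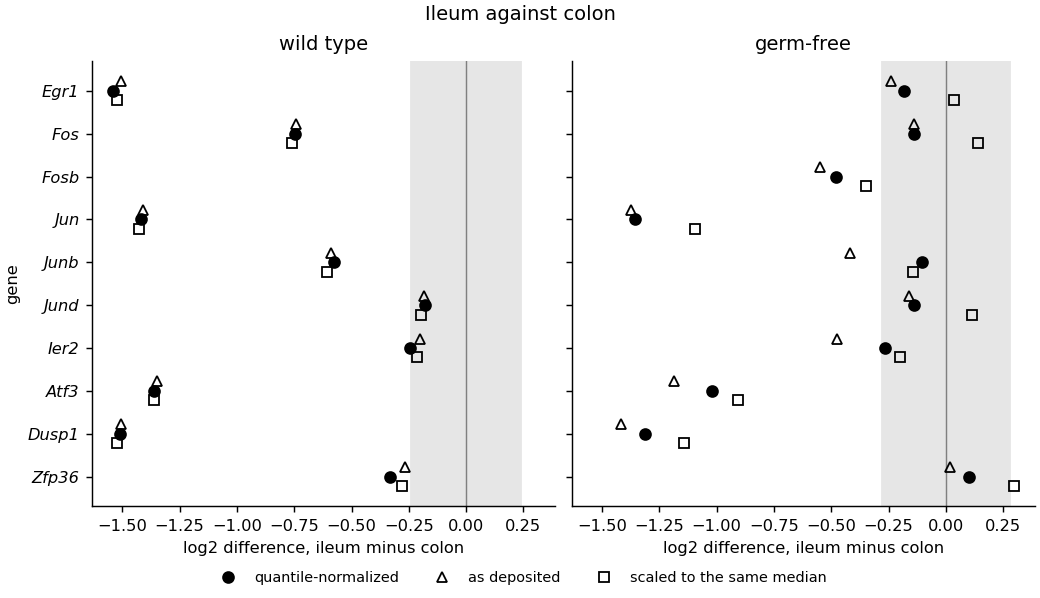
Log2 difference, ileum minus colon, of each gene in wild type (left) and germ-free (right) tissue; symbols and grey band are as in the plot of germ-free changes, and Fosb was not measured in wild type. The filled circles of Jun, Atf3 and Dusp1 lie left of the band in both states. Those of Egr1, Fos, Junb, Ier2 and Zfp36 do so in wild type and lie within it in germ-free.

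The genes around the members were described from lists of other primary response genes, kinases and factors upstream, EGF receptor ligands, other AP-1 partners, brakes on the pathway and targets of the Zfp36 protein. Among 40 other primary response genes, 33 were measured in colon, of which 18 were lower and 15 higher on the germ-free array, with a median of -0.04. At 1.5-fold 2 were lower and 4 higher, against 10.8% and 6.19% of all measured genes. The members' lower median in colon was not shared by this wider list. Sgk1, a kinase of sodium transport, was 1.87-fold higher in germ-free colon, at 6239 against 3340. Gadd45a, a growth arrest gene, was 1.78-fold lower at 146 against 259, and Maff, a small Maf factor, 1.69-fold lower at 191 against 324. In ileum 16 were lower and 15 higher of 31, with a median of -0.02 and 0 past 1.5-fold either way, against 3.17% and 2.4%.

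By region, this list shared part of the members' pattern. In wild type 11 of 32 measured genes were at least 1.5-fold lower in ileum and 6 higher, against 13.9% and 13.6% of all genes, with a median of -0.28. In germ-free it was 8 lower and 4 higher of 33, against 13.4% and 17.2%, with a median of -0.23. Maff was 2.29-fold lower in ileum in wild type and 1.17-fold lower in germ-free.

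Upstream, 19 of 26 listed kinases and factors were matched and 18 were measured in colon. The median there was -0.01, with 2 at least 1.5-fold lower and 0 higher, against 10.8% and 6.19%. The lower ones were Mapk9, a Jun kinase, at 349 against 653 (1.87-fold), and the EGF receptor Egfr, at 195 against 297 (1.52-fold). These are the brightest probe sets. Of Mapk9 2 others and of Egfr 4 others were above the floor on at least 1 array, and their values are not given here. Nras, a small GTPase above the MAP kinases, read 683 against 473 (1.44-fold higher). In ileum 0 of 18 passed 1.5-fold, against 3.17% lower and 2.4% higher, with a median of 0.03. In wild type ileum against colon 1 was lower and 0 higher, against 13.9% and 13.6%, with a median of -0.16.

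Of the EGF receptor ligands 5 were measured in colon and 6 in ileum, and 0 passed 1.5-fold with the germ-free state in either region (medians -0.06 and 0.04), against 10.8% lower and 6.19% higher of all measured genes in colon and 3.17% and 2.4% in ileum. With so few genes a count of 0 is near those shares. Hbegf read 1730 and 1630 on the wild type and germ-free colon arrays, and 1168 and 1275 on those of ileum. Tgfa read 906, 1007, 786 and 828 in that order. Ereg ran against the members by region, at 248, 238, 1397 and 1760, 5.62-fold higher in ileum in wild type and 7.39-fold in germ-free.

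Other AP-1 partners had 0 of 11 genes past 1.5-fold in either germ-free comparison, with medians of -0.10 in colon (background 10.8% lower and 6.19% higher) and 0.10 in ileum (3.17% and 2.4%). Mafg, a small Maf factor, had the same directions as Egr1, 1.44-fold lower on the germ-free colon array (708 against 1022) and 1.39-fold higher on the germ-free ileum array (1303 against 938). The stress factor Ddit3 was 1.34-fold lower in colon and 1.14-fold lower in ileum. Maf was 5.36-fold higher in ileum than in colon in wild type and 3.50-fold in germ-free, opposite in direction to the members.

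Of 15 brakes on the pathway, 13 were measured in colon, the median was -0.13, and at 1.5-fold 1 was lower and 0 higher, near the 10.8% and 6.19% of all measured genes. The lower one was Dusp10, at 116 on colon wild type and 61.5, below the floor, on colon germ-free. Its 1.86-fold difference is thus a bound. Dusp16, a phosphatase of the Jun kinases, read 1758 on colon wild type and 1184 on colon germ-free (1.48-fold lower). Zfp36l2, a relative of Zfp36, was 1.43-fold higher in germ-free colon (2100 against 1468) and 1.57-fold lower on the germ-free ileum array (1104 against 1730). Nab2, a co-repressor of Egr1, was above the floor in ileum alone, at 270 on wild type and 443 on germ-free, 1.64-fold higher. These 2 ileum genes were the ones of 13 past 1.5-fold there, 1 in each direction against 3.17% lower and 2.4% higher of all genes, and the list median was -0.03.

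Among 8 targets of the Zfp36 protein 4 were measured in both germ-free comparisons. In colon the median was -0.25, with 2 lower by 1.5-fold or more (background 10.8%), and in ileum 1 was higher (background 2.4%), with a median of 0.27. The lower ones in colon were Cxcl1 and Ptgs2, and the higher one in ileum was again Ptgs2. Both changes of Ptgs2 are bounds against the floor. It read 96.6 and 57.4 on the wild type and germ-free colon arrays, and 46.5 and 115 on those of ileum. The colon value of Tnf was a bound too. The chemokine Cxcl1 read 265 and 140 on the wild type and germ-free colon arrays, and 294 and 332 on those of ileum. Ier3, itself an early response gene, read 320, 350, 211 and 272 in that order.

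**Figure D5:**
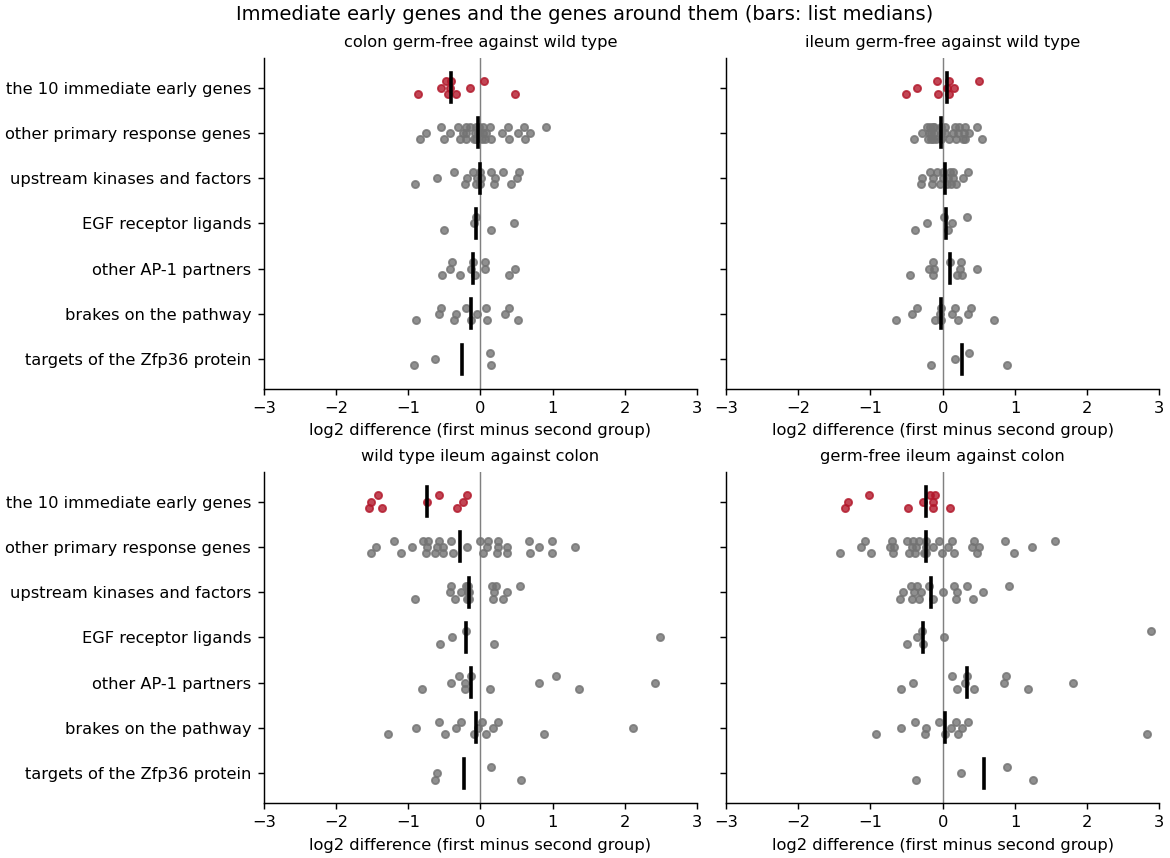
Log2 difference (first minus second group) of each measured gene of the 10 immediate early genes (red) and of 6 lists around them (grey), in the 4 comparisons; black bars are list medians, and values against a floored intensity are drawn at their bound. The members' median lies at -0.41 in colon germ-free against wild type, left of the other lists, and at -0.75 in wild type ileum against colon.

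The genes whose pattern over the 4 arrays was most like the members' mean pattern were found by the root mean square difference of log2 values after subtracting each gene's mean. The mean pattern was 0.47 and 0.21 on the wild type and germ-free colon arrays and -0.35 and -0.33 on those of ileum. Among 5887 genes bright on all arrays, the nearest were Cbl, an adaptor and ubiquitin ligase (0.028 log2), Paip2 (0.030), Ppa2 (0.031), Cpt1a, an enzyme of fatty acid oxidation (0.032), and Rab27a (0.035). With 4 arrays, likeness of this kind is a description of these arrays.

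The balance of all genes in the 2 comparisons that use the germ-free colon array depended on the scaling. Of genes past 1.5-fold on the germ-free colon array 36.4% were higher here, 58.9% as deposited and 21.2% with the arrays scaled to the same median. For germ-free ileum against colon it was 56.2%, 36.6% and 63.9%, and for the germ-free ileum array 43.1%, 30.3% and 36.9%. Between the wild type arrays it stayed between 46.9% and 49.5%. The median of all genes in germ-free ileum against colon was -0.11 as deposited and 0.15 with the same median. Egr1 lay between -1.10 and -0.83 in colon and between 0.43 and 0.50 in ileum for its germ-free change over the 7 alternatives. Of these, only the 2 other scalings moved its values.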

How the data were processed

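The submitters' design text names dCHIP2004 as the software behind the deposited intensity values, which are linear; the sources used here do not give its background, model and normalization options. Per the labels' protocols, 40 ng of total RNA from about 16000 captured cells in 10 µm sections was amplified in 2 rounds. From the 45101 deposited intensities per array, 64 controls were set aside. Values under 1 were set to 1, log2 values were quantile-normalized, and each gene was represented by the probe set with the highest mean log2 value. Lower values were set to the floor, and a gene was measured if at least 1 compared array was above it. A difference against a floored value is a bound. Gene symbols came from the platform annotation and were brought up to date with RefSeq (GRCm38.p6): 34945 had 1 symbol, 932 several and 9160 none here. Of 179 entries in the 13 other lists, 166 matched.

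The members and lists were chosen with earlier results of these data known. Named genes were all members, of each pathway list the 3 bright genes with the largest germ-free change (2 where no more were bright), and the 5 genes nearest to the members' mean pattern. Dusp10, Ptgs2 and Tnf were named beside these because their values are bounds against the floor. With 1 array per group the differences have no test, and their number sets the precision. The steps were tested on simulated data in which 1 array was shifted uniformly. Quantile normalization removes such a shift, so the scaling of the germ-free colon array was not tested by it. Python 3.11.15, numpy 2.4.6 and pandas 2.3.3 were used. Alternatives were 2 other scalings, 3 other floors and 2 other choices of probe sets.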

Additional observations from a re-analysis of the deposited data

Results flagged for a closer look

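For 4 genes the germ-free change had opposite signs in colon and ileum, on 1 array per group, and these differences between the regions were not tested. The share of all genes with opposite signs was not counted, so the count of 4 is not a result about the members. The colon change minus the ileum change was -1.36 log2 for Egr1, -0.61 for Fos, -0.43 for Zfp36 and -0.20 for Dusp1. Egr1 alone of these exceeded the spread between probe sets in both regions. For Fos and Zfp36 the colon change exceeded it and the ileum change did not, and for Dusp1 neither did. The signs were the same in the 2 other scalings. The other floors and choices of probe sets could not change them, because each of these genes has 1 probe set, bright on all arrays.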

How the results depend on the processing

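Of 84 alternative values of the members' medians and counts, 76 stayed within the spread or the count limit used, 8 moved and 0 reversed. Of 264 values of single genes, 10 moved. Many of the 264 repeat the main value, because floors and probe set choices cannot move a gene with 1 probe set, bright on all arrays. Of these 264, 6 had the other sign, all from values smaller than the spread between probe sets: Egr1, Fos and Jund in germ-free ileum against colon, and Jund in 2 other comparisons. With the arrays scaled to the same median, the members' median in colon for germ-free against wild type was -0.55. In that scaling 3 members were at least 1.5-fold lower there, against 15.8% of measured genes. As deposited the members' median there was -0.29, and that of germ-free ileum against colon was -0.45. With a floor at the pooled 25th percentile, or none, 1 member (Fosb) passed 1.5-fold in germ-free colon, as higher. Of all genes, 9.45% did so with that floor and 13.7% with none. In both settings the members' median of wild type ileum against colon was -0.66 over 10 genes. With the mean of its probe sets, Jund, whose second probe set is below the floor, was at 0.50 in colon for germ-free against wild type and 0.29 in wild type ileum against colon. The cause of the shifts with scaling was not tested. Values close to the floor, such as those of Fosb, are limited by signal over background. No paired analysis was possible because each group has 1 array, and no replicate could be left out.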

Other observations

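Beyond the 10 members, 6 of 32 other primary response genes measured in both states were at least 1.5-fold lower in ileum than in colon in wild type and in germ-free tissue, against 8.44% of all genes; they are named here after their values were seen. Gadd45b, a growth arrest and stress gene, read 282 on colon wild type, 245 on colon germ-free, 99.1 on ileum wild type and 91.5 on ileum germ-free. Errfi1, a feedback inhibitor of the EGF receptor, read 3950, 3767, 1454 and 1795 in that order. Rhob, a small GTPase, read 1287, 1322, 667 and 606. The kinase Plk3 read 188, 177, 87.7 and 108, the differentiation factor Klf4 9823, 10210, 5798 and 6149, and the AP-1 subunit Fosl1 111, 114, 71.9 and 70.7. In each of the 6 both colon arrays were above both ileum arrays, as for Jun, Atf3 and Dusp1. Their germ-free changes lay between -0.20 and 0.06 log2 in colon and between -0.14 and 0.31 in ileum.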
